A study of Mus musculus with 6 samples.

Results

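The endothelial receptor gene Heg1, the genes Krit1, Ccm2 and Pdcd10 of the cerebral cavernous malformation (CCM) complex, the kinase gene Map3k3 and the transcription factor genes Klf2 and Klf4 were compared between Smad4-deficient and control lung endothelial cells. These 7 genes were taken by symbol from a count table of 24951 genes, and all 7 passed the filter on low counts. The tested cells came from Smad4 iECKO pups, which carried floxed Smad4 alleles together with Cdh5-CreERT2, a Cre recombinase that is active in endothelial cells after tamoxifen. Controls were pups with the floxed alleles and no Cre; the labels call them wildtype. Both groups were sampled at postnatal day 5, with 3 libraries each, and cells were pulled from digested lungs with beads against CD31, an endothelial surface protein. No library combined Cre with intact Smad4, the day and dose of tamoxifen are not stated, and the labels speak of independent biological samples. The count columns of all 6 libraries share the tag lit14, each with a number of its own, and the labels do not say what the tag means, so whether the pups were from 1 litter is not stated.

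Cavernous malformations are dilated, leaky clusters of thin-walled vessels that arise when an endothelial cell loses Krit1, Ccm2 or Pdcd10. Heg1 is a transmembrane protein whose cytoplasmic tail binds KRIT1 and holds the complex at cell junctions. CCM2 binds the kinase MEKK3, the product of Map3k3, and restrains it, and MEKK3 drives MEK5, ERK5 and MEF2 factors, which switch on Klf2 and Klf4. Blood flow uses the same kinase route to raise both factors, which hold endothelium quiescent at normal levels and drive lesion growth when they are high. Smad4 loss belongs to a different disorder of vessel shape, hereditary hemorrhagic telangiectasia, in which arteries join veins directly.

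Reads assigned to genes ranged from 16041786 to 20172318 in the Smad4 iECKO libraries and from 14093564 to 21113926 in the control libraries. Levels are given as CPM, assigned reads brought to a common library size with TMM factors, a correction for library composition. A gene is called changed at a Benjamini-Hochberg adjusted p under 0.05 over all 14934 tested genes in edgeR's quasi-likelihood test. By that rule 3.27% of all tested genes were called, 1.34% lower and 1.93% higher in Smad4 iECKO. The groups did not overlap in 20.6% of all tested genes, called or not, and 14.0% of all tested genes had an unadjusted p under 0.05, which is the background for such counts in a list. Smad4 itself stood at 88.8, 72.9 and 94.2 CPM in Smad4 iECKO replicates 1, 2 and 3, against 188, 177 and 181 CPM in the controls. The 15 markers of endothelium summed to 13745 to 14093 CPM in Smad4 iECKO and 13203 to 14538 CPM in control libraries, which overlap. None of those 15 was at 0 counts, and 2 were called, Robo4 higher and Tek lower in Smad4 iECKO; the Robo4 call ended without Smad4 iECKO replicate 1 or 2 or control replicate 1 or 3 (edgeR adjusted p up to 0.127). In 7 of the 15 the groups did not overlap, beside 20.6% of all tested genes. Of these, Pecam1, Cdh5, Esam and Robo4 were higher and Tek, Kdr and Ptprb lower in Smad4 iECKO.

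Of the 7 genes, 1 was called, Heg1, which fell, and 6 were not called. That is 1 of 7 against a background of 3.27% of all tested genes. The median log2 fold change of the 7 was -0.05, beside -0.0024 over all tested genes. In 3 of the 7 the groups did not overlap, beside 20.6% of all tested genes; Ccm2 was higher, and Heg1 and Klf4 were lower, a direction without overlap that 9.04% of tested genes showed.

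**Figure D1:**
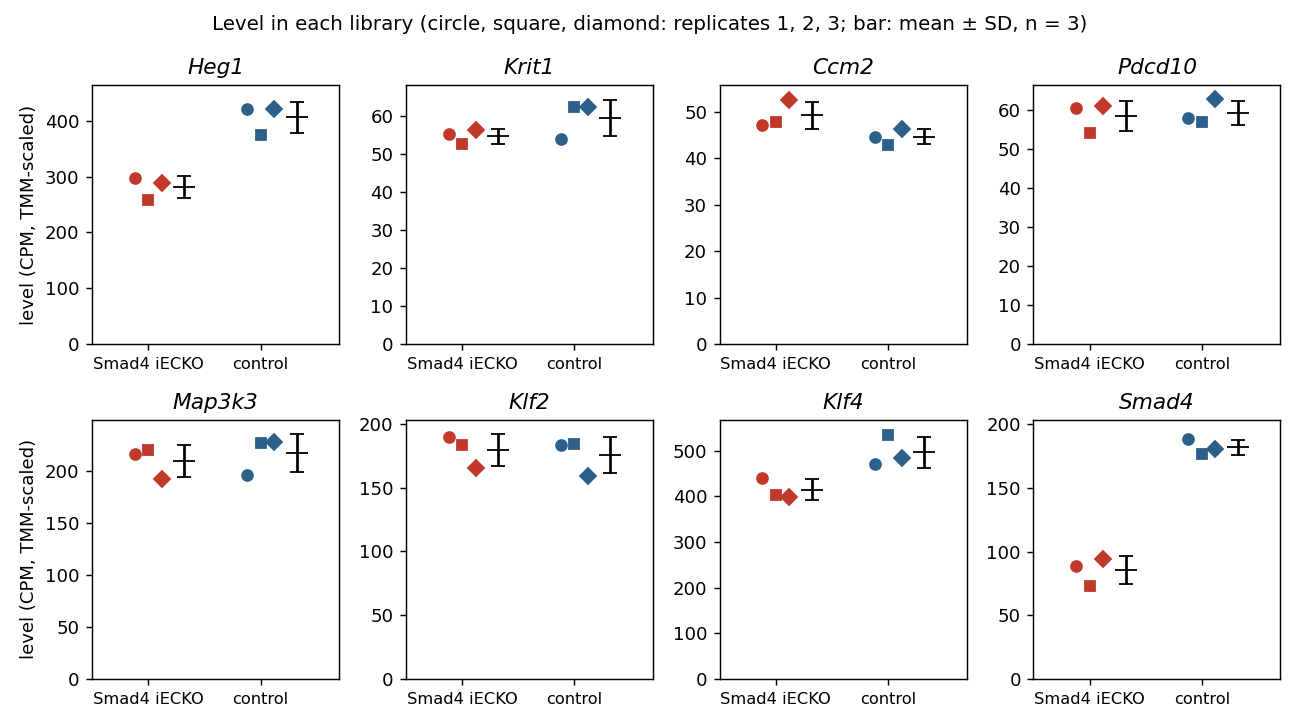
Level of each of the 7 genes and of Smad4 in every library, in TMM-scaled CPM on an axis that starts at 0, with Smad4 iECKO (red) left of control (blue). Circles, squares and diamonds are replicates 1, 2 and 3 and the black bar is the mean ± SD (n = 3); Heg1 lies between 258 and 297 CPM in Smad4 iECKO and between 375 and 422 CPM in control libraries, while the Klf2 values of both groups overlap.

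Heg1 (ENSMUSG00000075254.12) is a plus-strand gene of chromosome 16 (GRCm38, 33684370 to 33771576). Its level was 297, 258 and 289 CPM in Smad4 iECKO replicates 1, 2 and 3, and 422, 375 and 422 CPM in control replicates 1, 2 and 3. Every Smad4 iECKO library was below every control library, and in both groups replicate 2 was the lowest. The group means were 281 ± 20.5 CPM in Smad4 iECKO and 406 ± 27.2 CPM in control (SD, n = 3 each). Heg1 was thus 1.44-fold lower in Smad4 iECKO, a log2 fold change of -0.53 (SE 0.09, 95% interval -0.73 to -0.33, edgeR adjusted p = 0.0108). Among the 200 genes called lower it ranked 142 by size of change, a modest decrease, and 23 by mean log2 CPM. That second rank takes no account of gene length, and the exons of Heg1 cover 10460 bases. The call rests in part on Smad4 iECKO replicate 2: without that library the log2 fold change was -0.47 and the adjusted p 0.0664, while leaving out any other single library kept the call.

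Heg1 was also expressed as ratios within each library, a comparison added after the data were seen that needs no scaling between libraries. The ratios use the same Heg1 counts as the test and are not separate evidence of the decrease. There were 4.90, 4.76 and 4.74 Heg1 reads for each Pdcd10 read in Smad4 iECKO replicates 1, 2 and 3, against 7.27, 6.57 and 6.71 in control replicates 1, 2 and 3. For each Ccm2 read the numbers were 6.29, 5.39 and 5.50 in Smad4 iECKO and 9.44, 8.73 and 9.13 in control libraries. For each Krit1 read they were 5.37, 4.91 and 5.14 in Smad4 iECKO and 7.80, 6.01 and 6.77 in control libraries. In all 3 ratios the groups were apart. Per 1000 CPM of the 15 summed endothelial markers, Heg1 had 20.3 ± 1.72 CPM in Smad4 iECKO and 29.4 ± 1.23 CPM in control libraries (SD, n = 3 each). In RNA from pooled cells, fewer Heg1-expressing cells and less Heg1 RNA per cell cannot be told apart.

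The 250 bases before the RefSeq start of Heg1 (GRCm38.p6, chr16:33684216-33684465, plus strand) are shown because Heg1 is the gene that fell, with CACCC, a core recognised by KLF factors, in capitals on either strand.
Heg1: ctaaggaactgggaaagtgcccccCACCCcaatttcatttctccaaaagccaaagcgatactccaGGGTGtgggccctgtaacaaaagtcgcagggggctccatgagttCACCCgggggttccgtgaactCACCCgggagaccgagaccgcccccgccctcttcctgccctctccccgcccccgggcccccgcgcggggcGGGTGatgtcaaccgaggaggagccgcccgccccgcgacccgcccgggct
The window held 5 copies of CACCC, none overlapping another. The gene start given above, 33684370, lies inside this window. The copy 50 bases before the RefSeq start is therefore within the gene by those coordinates. At least 1 copy is found in 52.0% of the 32817 windows of the same length in the table, and at least 5 copies in 0.664% of them. The cut of 5 was taken from the Heg1 window itself. The windows were not matched for GC content, which was 68% in that of Heg1. Heg1 had no CAGAC, a SMAD motif found in 42.2% of windows on either strand, and no GGCGCC, a GC-rich SMAD motif found in 9.59%. Such letter matches describe the sequence and are not evidence of binding. An antisense gene, Gm15657, overlaps 318 bases of Heg1 exons and is not a row of the table, and a TruSeq RNA v2 library does not keep strand, so reads of both transcripts there cannot be told apart.

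The 3 genes of the CCM complex were not called. Krit1, whose protein binds the tail of HEG1 and the small GTPase RAP1, is on chromosome 5 (3803184 to 3845564). It stood at 55.2, 52.5 and 56.3 CPM in Smad4 iECKO replicates 1, 2 and 3, and at 54.0, 62.4 and 62.3 CPM in control replicates 1, 2 and 3. The groups overlapped, through control replicate 1. Its log2 fold change came to -0.12, with a 95% interval of -0.34 to 0.09 (edgeR adjusted p = 0.626).

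Ccm2, the scaffold that ties KRIT1 to PDCD10 and to MEKK3, is on chromosome 11 (6546887 to 6596744). It had 47.2, 47.9 and 52.6 CPM in Smad4 iECKO replicates 1, 2 and 3, against 44.7, 42.9 and 46.2 CPM in control replicates 1, 2 and 3. All Smad4 iECKO libraries were above all controls, by a margin smaller than the range within either group. On the log2 scale the difference was 0.14, with a 95% interval of -0.07 to 0.35 (edgeR adjusted p = 0.551).

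Pdcd10, an adaptor of the complex that also binds the germinal centre kinases, is on chromosome 3 (75516490 to 75556856). Its levels were 60.6, 54.2 and 61.0 CPM in Smad4 iECKO replicates 1, 2 and 3, and 58.0, 57.0 and 62.9 CPM in control replicates 1, 2 and 3. The groups overlapped in part, Smad4 iECKO replicate 2 being below all controls and control replicate 3 above all Smad4 iECKO libraries, with a log2 fold change of -0.02 and a 95% interval of -0.23 to 0.19 (edgeR adjusted p = 0.956). These intervals, which are not adjusted for the number of genes, leave room for a 1.14-fold rise or a fall to 0.854 of the control level in Pdcd10.

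Map3k3, the gene of the kinase MEKK3, is on chromosome 11 (106084613 to 106155446) and was not called. It had 216, 219.7 and 192 CPM in Smad4 iECKO replicates 1, 2 and 3, against 196, 227 and 228 CPM in control replicates 1, 2 and 3. The lowest Smad4 iECKO and the lowest control library were close to each other, and the groups overlapped. This gave a log2 fold change of -0.05 and a 95% interval of -0.26 to 0.16 (edgeR adjusted p = 0.856).

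**Figure D2:**
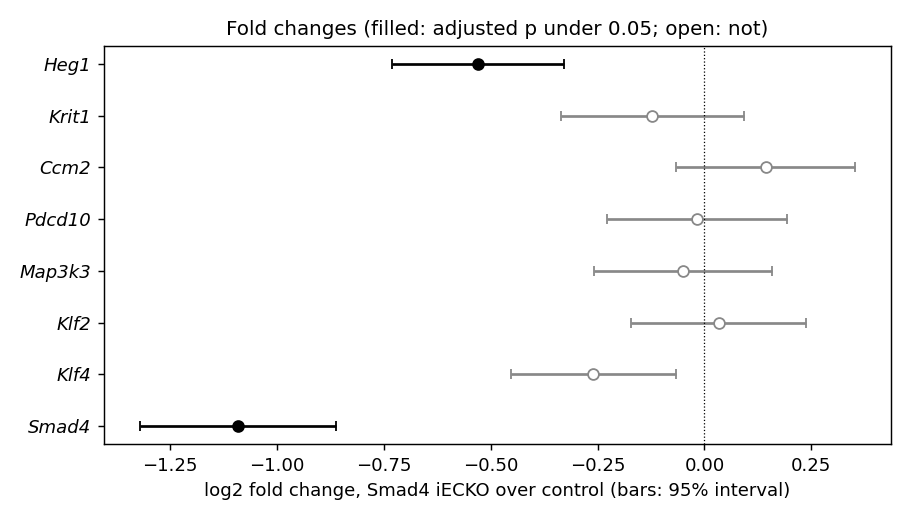
The log2 fold change, Smad4 iECKO over control, of the 7 genes and of Smad4, with 95% intervals as bars and filled points where the edgeR adjusted p was under 0.05. Heg1 at -0.53 and Smad4 at -1.09 are filled; Klf4 at -0.26 has an interval below 0 that is not adjusted for the number of genes, and the other 5 intervals include 0.

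The end points of the cascade, Klf2 and Klf4, gave different values. Klf2 (chromosome 8, 72319033 to 72321656), the flow-induced factor, stood at 190, 183 and 166 CPM in Smad4 iECKO replicates 1, 2 and 3, and at 183, 184 and 159 CPM in control replicates 1, 2 and 3. The groups overlapped, and replicate 3 was the lowest of each. For Klf2 the log2 fold change came to 0.03, with a 95% interval of -0.17 to 0.24 (edgeR adjusted p = 0.908), which holds the Klf2 difference within 1.18-fold higher and 0.888 of the control level.

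Klf4 (chromosome 4, 55527143 to 55532466, minus strand), the second factor of the pair, had 441, 403 and 399.9 CPM in Smad4 iECKO replicates 1, 2 and 3, against 471, 534 and 484 CPM in control replicates 1, 2 and 3. Every Smad4 iECKO library was below every control library. The means were 415 ± 22.8 CPM in Smad4 iECKO and 497 ± 33.2 CPM in control (SD, n = 3 each). The difference, -0.26 on the log2 scale (SE 0.09, 95% interval -0.45 to -0.07), did not pass the test (unadjusted p = 0.0131, edgeR adjusted p = 0.181). Groups that do not overlap are found in 20.6% of tested genes. There were 2.32, 2.20 and 2.41 Klf4 reads for each Klf2 read in Smad4 iECKO replicates 1, 2 and 3, against 2.57, 2.90 and 3.05 in control replicates 1, 2 and 3. This ratio, which needs no scaling between libraries, was lower in all Smad4 iECKO libraries. It was also added after the data were seen. It is made of the same Klf4 counts as the test, so it is not separate evidence of a Klf4 difference.

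**Figure D3:**
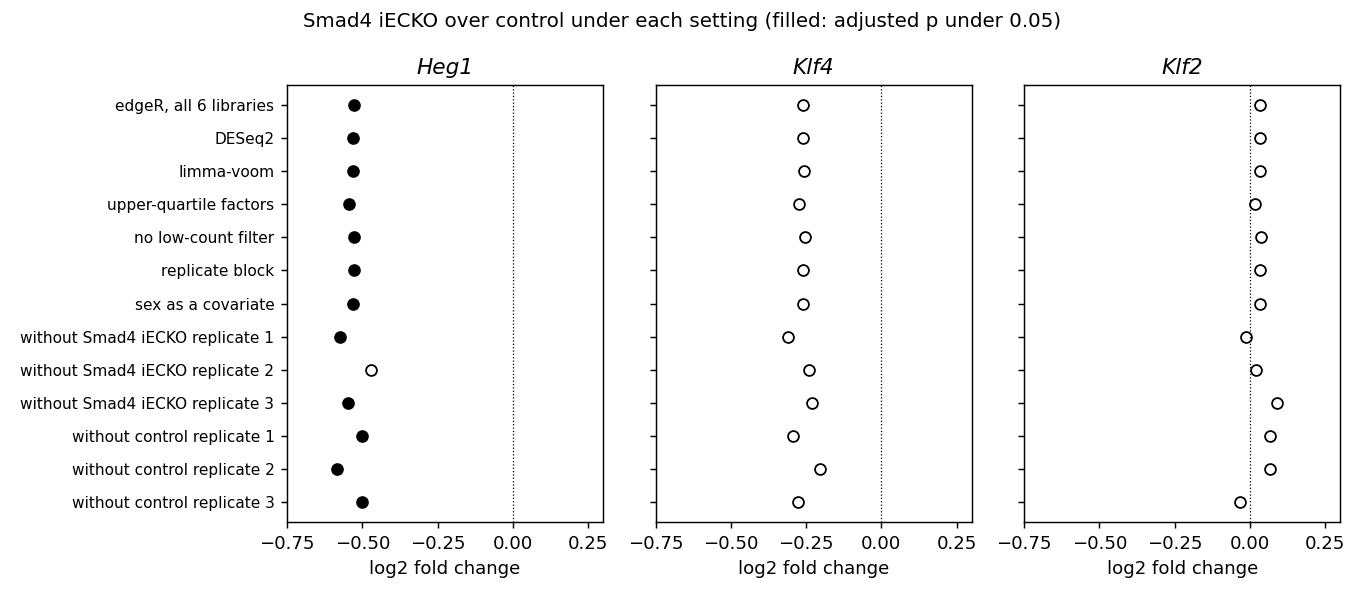
The log2 fold change, Smad4 iECKO over control, of Heg1, Klf4 and Klf2 with all 6 libraries in edgeR and under each of 12 other settings, filled where the adjusted p was under 0.05. Heg1 lies between -0.58 and -0.47 and is open without Smad4 iECKO replicate 2; Klf4 lies between -0.31 and -0.20 and is open throughout; Klf2 lies on both sides of 0.

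Klf2 and Klf4 are also immediate-early genes, which cells can induce while a tissue is being dissociated. The list of 18 other immediate-early and heat shock genes had 0 calls in edgeR, 2 at an unadjusted p under 0.05, 1 call in DESeq2 and 0 in limma-voom. Its summed level was 6844 to 8240 CPM in Smad4 iECKO and 7239 to 9198 CPM in control libraries. Control replicate 2 was the highest and Smad4 iECKO replicate 3 the lowest, as they were for Klf4, but the order between them differed. Smad4 iECKO replicate 2 was above control replicates 1 and 3 in this sum and below both for Klf4. Klf2 was highest in Smad4 iECKO replicate 1 and lowest in control replicate 3. The median of this list relative to the control mean was -0.02, 0.02 and -0.23 on the log2 scale in Smad4 iECKO replicates 1, 2 and 3, and -0.14, 0.20 and 0.01 in control replicates 1, 2 and 3. Egr1, a zinc finger factor of the list, averaged 510.1 ± 12.5 CPM in Smad4 iECKO and 658 ± 83.8 CPM in control (edgeR adjusted p = 0.0880). Ier3, with the next smallest p, averaged 241 ± 12.7 CPM in Smad4 iECKO and 292 ± 42.1 CPM in control (edgeR adjusted p = 0.267). The part of dissociation in the Klf4 values was not tested.

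The 250 bases before the RefSeq starts of Klf2 (GRCm38.p6, chr8:72318812-72319061, plus strand) and Klf4 (chr4:55532476-55532725, minus strand) are shown because both genes are known outputs of MEF2 factors, and capitals mark the MEF2 consensus.
Klf2: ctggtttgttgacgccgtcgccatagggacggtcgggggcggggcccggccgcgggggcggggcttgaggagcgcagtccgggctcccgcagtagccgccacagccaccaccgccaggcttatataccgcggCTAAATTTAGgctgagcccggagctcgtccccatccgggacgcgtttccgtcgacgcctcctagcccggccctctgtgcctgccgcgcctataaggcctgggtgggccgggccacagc
Klf4: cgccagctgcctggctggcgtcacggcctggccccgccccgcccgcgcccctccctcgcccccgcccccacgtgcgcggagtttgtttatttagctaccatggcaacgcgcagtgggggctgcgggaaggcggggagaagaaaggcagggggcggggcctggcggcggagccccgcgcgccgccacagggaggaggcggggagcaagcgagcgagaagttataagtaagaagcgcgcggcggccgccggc
The MEF2 consensus was found once in the Klf2 window, as CTAAATTTAG starting 118 bases before the start, and not in the Klf4 window as these letters. It occurs in 2.92% of the 32817 windows and in none of those of Heg1, Krit1, Ccm2, Pdcd10 and Map3k3. The CACCC core was found once in the Klf2 window, apart from the MEF2 match, and not in that of Klf4. In Klf2 it began 19 bases before the RefSeq start, which is within the gene by the coordinates given above. CAGAC and GGCGCC were in neither window. The table held a window for all 7 genes.

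Levels per exon length, in CPM per kb, were highest for Klf4, at 137 ± 7.52 in Smad4 iECKO and 164 ± 10.96 in control libraries (SD, n = 3 each). Klf2 followed with 97.2 ± 6.72 in Smad4 iECKO and 94.9 ± 7.73 in control, and Map3k3 with 60.7 ± 4.36 in Smad4 iECKO and 62.8 ± 5.31 in control. Krit1 was the lowest, at 9.11 ± 0.325 CPM per kb in Smad4 iECKO and 9.92 ± 0.799 in control libraries. Between these ends stood Heg1, with 26.9 ± 1.96 CPM per kb in Smad4 iECKO and 38.8 ± 2.60 in control, Pdcd10, with 30.4 ± 1.99 in Smad4 iECKO and 30.8 ± 1.63 in control, and Ccm2, with 23.6 ± 1.41 in Smad4 iECKO and 21.4 ± 0.781 in control. In control libraries no neighbours in the order overlapped, and Heg1 was in place 4 above Pdcd10. In Smad4 iECKO libraries Heg1 was in place 5, and its range overlapped those of its neighbours Pdcd10 and Ccm2. With the longest transcript as the gene's length, an alternative chosen after seeing the data, Heg1 stayed in place 4 in both groups.

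**Figure D4:**
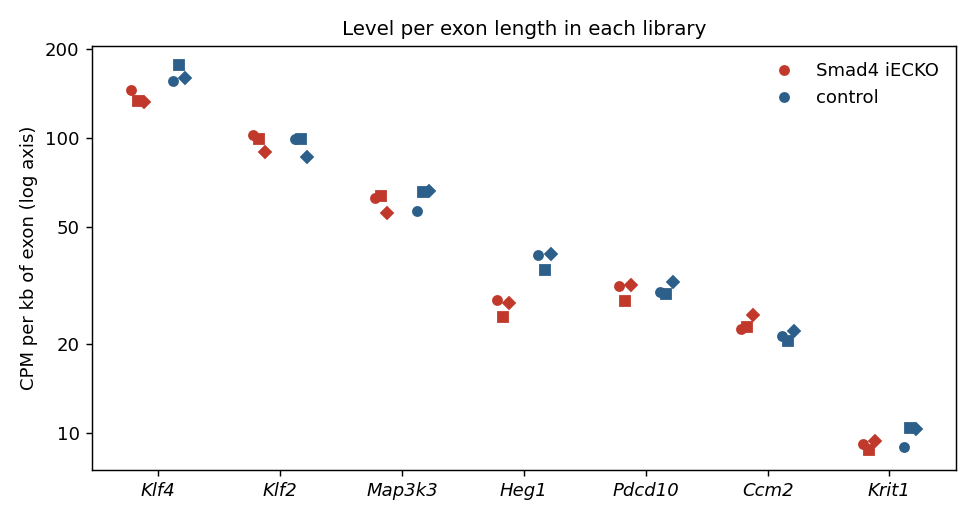
Level of each of the 7 genes in CPM per kb of exon, on a log axis, with Smad4 iECKO (red) left of control (blue) and circles, squares and diamonds for replicates 1, 2 and 3. Klf4 and Klf2 are highest and Krit1 lowest in both groups, and Heg1 lies above Pdcd10 in control but overlaps it in Smad4 iECKO libraries.

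Over the 6 libraries, the profiles most like that of Heg1 were those of Tspan7, Meis1 and Ptprg. Likeness was the root mean square difference of centred log2 CPM, and came to 0.050, 0.051 and 0.060. The search covered the 6691 genes whose log2 CPM averaged 5 or more, with unnamed gene models left out. Tspan7 stood at 443, 401 and 459.8 CPM in Smad4 iECKO replicates 1, 2 and 3, against 632, 533 and 635 CPM in control replicates 1, 2 and 3, so that replicate 2 was the lowest of both groups, as for Heg1. The nearest profiles to Klf4 were those of Dip2c, Fat4 and Setd1b, with differences of 0.014, 0.022 and 0.038. The nearest to Klf2 were those of Abcg1, Atmin and Pip4k2c, with 0.026, 0.035 and 0.037. These neighbours are named for their profiles in these libraries alone.

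Of 10 genes that place KRIT1 and HEG1 at junctions, 0 were called in edgeR, DESeq2 or limma-voom and 1 had an unadjusted p under 0.05. That gene was Rap1b, a GTPase that brings KRIT1 to the membrane, with 389 ± 30.7 CPM in Smad4 iECKO and 449 ± 28.4 CPM in control (SD, n = 3 each). Cdh5, the cadherin of endothelial junctions, had 2438 ± 69.6 CPM in Smad4 iECKO and 2185 ± 112 CPM in control (edgeR adjusted p = 0.395). The median log2 fold change of this list was -0.04.

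Of 13 partners of PDCD10, the germinal centre kinases and the phosphatase complex STRIPAK among them, 0 were called in edgeR, DESeq2 or limma-voom and 3 had an unadjusted p under 0.05. Strn3, a striatin scaffold of STRIPAK, had 137 ± 13.5 CPM in Smad4 iECKO and 162 ± 6.83 CPM in control (edgeR adjusted p = 0.270). Pxn, which encodes the focal adhesion protein paxillin, had 344 ± 24.1 CPM in Smad4 iECKO and 299 ± 5.51 CPM in control (edgeR adjusted p = 0.292). The list median was -0.06.

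Of 7 genes made up of the Ccm2 paralog Ccm2l and the cascade below MEKK3, 0 were called in edgeR, 1 had an unadjusted p under 0.05, 1 was called in DESeq2 and 0 in limma-voom. Ccm2l, which encodes an endothelial relative of CCM2 that binds MEKK3, had 115, 116 and 120.4 CPM in Smad4 iECKO replicates 1, 2 and 3, against 131, 187 and 164 CPM in control replicates 1, 2 and 3. All Smad4 iECKO libraries were below all controls, among which replicate 1 was the lowest. On the log2 scale it differed by -0.45 (SE 0.12, edgeR adjusted p = 0.0809; DESeq2 adjusted p = 0.0204). Mapk7, the gene of ERK5, had 55.4 ± 2.51 CPM in Smad4 iECKO and 61.2 ± 5.65 CPM in control, and Mef2c, a MEF2 factor, had 172 ± 9.40 CPM in Smad4 iECKO and 161 ± 17.0 CPM in control. Map3k2, the paralog of Map3k3, had 65.9 ± 12.9 CPM in Smad4 iECKO and 80.7 ± 8.86 CPM in control. The list median was -0.07.

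TLR4 signalling can feed MEKK3, and of its 6 genes 0 were called in edgeR, DESeq2 or limma-voom, 0 had an unadjusted p under 0.05 and the median log2 fold change was 0.06. Myd88, the adaptor, had 79.2 ± 3.18 CPM in Smad4 iECKO and 67.6 ± 12.7 CPM in control, and the co-receptor gene Cd14 had 40.5 ± 5.31 CPM in Smad4 iECKO and 34.9 ± 8.39 CPM in control.

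**Figure D5:**
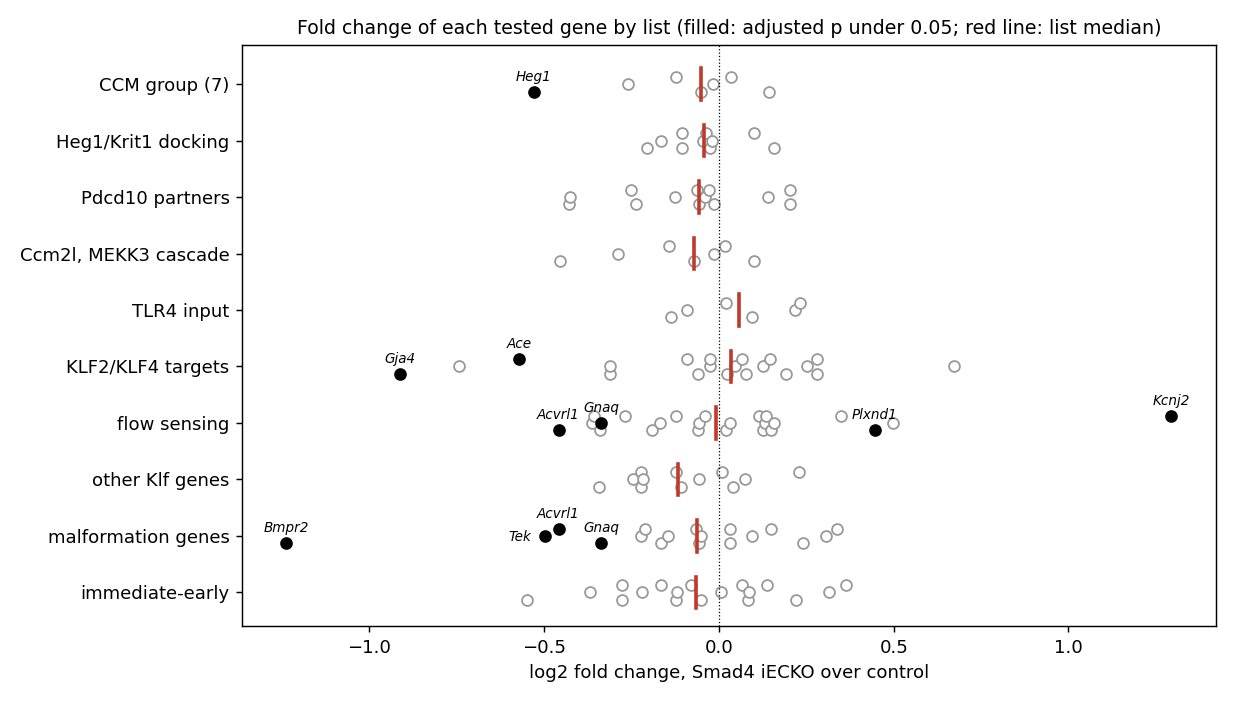
Each tested gene's log2 fold change, Smad4 iECKO over control, by list, with filled and named points where the edgeR adjusted p was under 0.05 and a red line at each list's median. Heg1 is the filled point among the 7 genes; list medians run from -0.12 for the other Klf genes to 0.06 for the TLR4 list.

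Among 20 genes known to respond to KLF2 or KLF4, 0 rose, 2 fell and 18 did not pass, which is 10.0% called beside 3.27% of all tested genes. The median log2 fold change was 0.03, and 6 had an unadjusted p under 0.05. The list does not separate genes that KLF2 or KLF4 raise from genes that they lower. Its counts and median therefore do not measure the output of these factors. DESeq2 called 1 higher and 4 lower, and limma-voom 0 higher and 2 lower. Gja4, a gap junction gene of arteries, had 80.5, 72.2 and 84.7 CPM in Smad4 iECKO replicates 1, 2 and 3, against 154, 148 and 144 CPM in control replicates 1, 2 and 3. Ace, which encodes angiotensin-converting enzyme, had 1088, 1002 and 1149.6 CPM in Smad4 iECKO replicates 1, 2 and 3, against 1600.4, 1636 and 1579 CPM in control replicates 1, 2 and 3. Both genes were apart between the groups, with log2 fold changes of -0.91 for Gja4 and -0.57 for Ace (edgeR adjusted p = 0.000651 and 0.00378).

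The targets most used as readouts of KLF2 were not called in edgeR. Nos3, the endothelial nitric oxide synthase, averaged 159.9 ± 11.5 CPM in Smad4 iECKO and 153 ± 7.67 CPM in control (edgeR adjusted p = 0.783). Thbd, the anticoagulant thrombomodulin, averaged 546 ± 12.9 CPM in Smad4 iECKO and 678 ± 45.5 CPM in control, with a log2 fold change of -0.31 and no overlap between the groups (edgeR adjusted p = 0.0816, DESeq2 adjusted p = 0.0258). Thbs1 and Adamts4, known to shift when the CCM complex is lost, were chosen for mention after their values were seen. The secreted angiogenesis inhibitor Thbs1 averaged 531 ± 168 CPM in Smad4 iECKO and 522 ± 161 CPM in control, and the versican-cutting protease Adamts4 averaged 50.02 ± 18.6 CPM in Smad4 iECKO and 41.3 ± 14.5 CPM in control. Neither passed the test (edgeR adjusted p = 0.982 for Thbs1 and 0.7805 for Adamts4), and the groups overlapped in both.

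Of 24 genes of flow sensing, 2 rose, 2 fell and 20 did not pass, 16.7% called beside 3.27% of all tested genes, with a median log2 fold change of -0.01. DESeq2 called 3 higher and 3 lower, and limma-voom 2 higher and 1 lower. Kcnj2, an inward rectifier potassium channel that opens under flow, had 119.8, 72.9 and 77.3 CPM in Smad4 iECKO replicates 1, 2 and 3, against 32.4, 40.3 and 37.6 CPM in control replicates 1, 2 and 3. It rose 2.45-fold, to above all controls in each Smad4 iECKO library (log2 fold change 1.29, SE 0.19, edgeR adjusted p = 0.00971). Plxnd1, a semaphorin receptor and flow sensor, averaged 1373 ± 82.4 CPM in Smad4 iECKO and 1008 ± 64.1 CPM in control (edgeR adjusted p = 0.0184). Its call ended without Smad4 iECKO replicate 1 or 2 or control replicate 1 or 2, with an adjusted p of up to 0.105.

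Acvrl1, which encodes the BMP9 receptor ALK1, averaged 706 ± 23.2 CPM in Smad4 iECKO and 970.3 ± 80.6 CPM in control, and its partner Eng averaged 935 ± 29.6 CPM in Smad4 iECKO and 915 ± 63.7 CPM in control (edgeR adjusted p = 0.0175 and 0.904). The Acvrl1 call ended without Smad4 iECKO replicate 1 or 2 or control replicate 3 (adjusted p up to 0.103). Gnaq, a G protein subunit of flow responses, averaged 178 ± 7.53 CPM in Smad4 iECKO and 225 ± 8.33 CPM in control (edgeR adjusted p = 0.0484), and its call ended whichever of the 6 libraries was left out, with adjusted p from 0.0765 to 0.185.

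Beyond Klf2 and Klf4, 12 of 15 other Klf genes were tested and 0 were called in edgeR, DESeq2 or limma-voom, with 1 at an unadjusted p under 0.05 and a median log2 fold change of -0.12. Klf7 averaged 38.2 ± 3.00 CPM in Smad4 iECKO and 48.5 ± 5.59 CPM in control (edgeR adjusted p = 0.180), and Klf9 averaged 51.2 ± 6.04 CPM in Smad4 iECKO and 59.4 ± 6.06 CPM in control (edgeR adjusted p = 0.467). Klf17 was at 0 counts in all 6 libraries.

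Next came 18 tested genes of inherited or mosaic vascular malformations other than cavernous ones. Of these, 0 rose, 4 fell and 14 did not pass, 22.2% called beside 3.27% of all tested genes. The median log2 fold change was -0.06. This list, like all others, was chosen with earlier results of these data known. It does not separate genes that cause malformations by loss from genes that cause them by gain of function. Its counts and median therefore do not measure a likeness to any malformation. DESeq2 called 0 higher and 4 lower, and limma-voom 0 higher and 3 lower. The 4 were Bmpr2, Tek, Acvrl1 and Gnaq, and Acvrl1 and Gnaq are also on the flow sensing list. Bmpr2, the BMP type II receptor, averaged 411 ± 95.6 CPM in Smad4 iECKO and 968 ± 76.5 CPM in control, and Tek, the angiopoietin receptor of venous malformations, averaged 542 ± 45.4 CPM in Smad4 iECKO and 765 ± 29.8 CPM in control (edgeR adjusted p = 0.00524 and 0.0128). The call of Tek ended without Smad4 iECKO replicate 2 (adjusted p = 0.0760) or control replicate 3 (0.0540). Set beside these, Heg1 was the gene of the CCM group that passed, and Krit1, Ccm2 and Pdcd10, the 3 whose loss causes cavernous malformations, did not.

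Cells other than blood vessel endothelium were present in both groups. Of 85 tested markers from 9 lists of other cells, 1 was called, and 7 had an unadjusted p under 0.05. The called one was Lyve1, a marker of lymphatic vessels, at 968 ± 17.2 CPM in Smad4 iECKO and 713 ± 50.1 CPM in control, a call that ended without Smad4 iECKO replicate 1 or 2 or control replicate 2 (adjusted p up to 0.0904). Which cells the Lyve1 reads came from was not tested. The defining lymphatic factor Prox1 averaged 58.0 ± 10.95 CPM in Smad4 iECKO and 63.5 ± 7.22 CPM in control, and Ccl21a was at 0 in all libraries. The 12 markers of pericytes and smooth muscle summed to 415 to 530.5 CPM in Smad4 iECKO and 288 to 429.7 CPM in control libraries. The 12 fibroblast markers summed to 1948 to 2739 CPM in Smad4 iECKO and 1904 to 2496 CPM in control, and the 14 of alveolar epithelium to 3470.1 to 3956 CPM in Smad4 iECKO and 2656 to 4924 CPM in control libraries.

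The 7 mesothelial markers, from a cell layer where HEG1 is also known, summed to 107 to 133 CPM in Smad4 iECKO and 85.9 to 155 CPM in control. The 13 macrophage and monocyte markers summed to 818 to 870.3 CPM in Smad4 iECKO and 813 to 967 CPM in control. The 10 neutrophil markers summed to 91.7 to 135 CPM in Smad4 iECKO and 61.0 to 135 CPM in control, and 9 lymphocyte markers to 154 to 211 CPM in Smad4 iECKO and 135 to 151 CPM in control libraries. The 9 erythroid and platelet markers summed to 54.9 to 78.5 CPM in Smad4 iECKO and 58.2 to 79.4 CPM in control. Hbb-bs and Hba-a1 were at 0. How reads matching several genes were counted is not stated, so the 0 counts here and for Ccl21a do not show absence. The most abundant marker of each list was Acta2 for pericytes and smooth muscle, Fn1 for fibroblasts, Sftpc for epithelium, Krt19 for mesothelium, Lyz2 for macrophages, S100a9 for neutrophils, Ms4a1 for lymphocytes, Lyve1 for lymphatic vessels and Itga2b for platelets. Ranges overlapped between the groups for every list but those of lymphocytes and lymphatic vessels. The lymphatic list summed to 1205 to 1276 CPM in Smad4 iECKO and 906 to 1080.03 CPM in control libraries. Lyve1 alone made up most of that sum. In both the lymphocyte and the lymphatic list the median log2 fold change went the other way from the sum. It was -0.26 for lymphocytes, with 5 of 8 tested genes below 0, and -0.13 for lymphatic vessels, with 3 of 5 below 0. The part of these cells in the levels of the 7 genes was not tested.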

How the data were processed

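Per the labels' protocols, polyadenylated RNA of CD31-selected lung cells was made into TruSeq RNA v2 libraries. The authors deposited raw counts, whole numbers per gene symbol and library; per-library and combined forms differed in 0 values. mm10 and DESeq2 (no version) are named per the submitters' processing notes. For aligner, counter, annotation and strand setting: not given in the sources used here. Reads outside genes (53.9% to 58.2% of a library) and ambiguous reads (0.288% to 0.366%) were left out. A count of 3, taken as the floor, corresponds to 0.140 to 0.214 CPM, far under every one of the 7 genes.

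The tests ran in edgeR 4.0.16 under R 4.3.3: filterByExpr, TMM factors, robust quasi-likelihood F tests of Smad4 iECKO against control (two-sided, no covariate), Benjamini-Hochberg adjustment over 14934 genes. The SE was the log2 fold change divided by the square root of F, and intervals used the t distribution. Alternatives were DESeq2 1.42.0, limma-voom (limma 3.58.1), upper-quartile factors, no low-count filter, replicate number as a block, sex as a covariate and leaving out each library. The fits were tested on simulated data. Exon lengths (unions over protein-coding transcripts), gene identifiers and coordinates came from GENCODE M21 on GRCm38, the assembly of mm10, by symbol. Promoter windows are RefSeq's.

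The 7 genes and all lists were chosen with earlier results of these data known; 242 of 243 list symbols were in the counts. The result of 1 list is not reported here. Apart from Thbs1, Adamts4, Prox1 and genes at 0 counts, chosen after their values were seen, genes were named by rule: the 7, Smad4, up to 5 called genes a list (or the 2 with the smallest p), the most abundant marker of each other cell type, the nearest profiles and 8 fixed pathway genes. P-values weigh the difference between the groups against the spread between the libraries of a group, an estimate that draws on all tested genes. Every pair of replicates differed by more than sampling noise (chi-square per degree of freedom at least 12.3). Sex read from expression was the same in same-numbered replicates of both groups.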

Additional observations from a re-analysis of the deposited data

How the results depend on the processing

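Heg1 kept its direction in all 12 alternatives and its call in 11, with log2 fold changes from -0.58 to -0.47 over the fits without 1 library; without Smad4 iECKO replicate 2 it was -0.47 (adjusted p = 0.0664), so that 0 of the 7 genes were then called, and the cause was not tested. Klf4 was called in none of the 12, at -0.31 to -0.20 without 1 library. Log2 fold changes without 1 library ran from -0.033 to 0.091 for Klf2, -0.046 to 0.037 for Pdcd10, -0.12 to 0.0099 for Map3k3, -0.013 to 0.086 for Eng, -0.19 to -0.09 for Krit1 and 0.09 to 0.17 for Ccm2, so the first 4 changed sign, none of them called. Eng stood at -0.013 without control replicate 1, Klf2 at -0.012 without Smad4 iECKO replicate 1 and -0.033 without control replicate 3, Pdcd10 at 0.037 without Smad4 iECKO replicate 2 and 0.027 without control replicate 3, and Map3k3 at 0.0099 without Smad4 iECKO replicate 3.

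Genes called were 488 in edgeR and 754 in DESeq2, with 311 lower and 443 higher in DESeq2 against 200 lower and 288 higher in edgeR. Without 1 library edgeR called 211 to 428, with 80 to 204 lower and 131 to 257 higher. Of 88 pathway genes 6 were called, 13 in DESeq2 and 3 to 6 without 1 library. Ccm2l was called in DESeq2, without control replicate 1 and when low counts were kept. The rank of Heg1 in Smad4 iECKO was 4 with the longest transcript as length. The deviations of same-numbered libraries correlated at -0.01, 0.02 and 0.16 for replicates 1, 2 and 3, so the numbers were not taken as pairs; with the replicate block 466 genes were called and Heg1 kept its call (log2 fold change -0.53, adjusted p = 0.0109). With 3 libraries a group, a difference of the size of Klf4 did not pass the test.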
